A study of Mus musculus with 6 samples.

Results

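The 10 genes described here encode proteins that copy, package and read the mitochondrial genome, or that regulate the nuclear genes for this work: Tfam, Tfb1m, Tfb2m, Polrmt, Polg, Polg2, Ssbp1, Nrf1, Gabpa and Lrpprc. They were picked by gene symbol, and all 10 were found among the 12393 genes measured, with 19 probe sets between them. A probe set is a group of short array probes that report on 1 transcript. RNA of whole brown adipose tissue, the heat-producing fat depot, was profiled on 6 arrays. The YY1bKO group held 3 arrays from mice with floxed Yy1 alleles (YY1flox/flox) and Ucp1Cre, a Cre recombinase under the Ucp1 promoter, which is active in brown adipocytes. The control group held 3 arrays from YY1flox/flox mice without it. Mice of both groups were 3.5 months old, of a mixed strain (C57BL6 with 129), and had been on a high fat diet for 3 months. Whether a replicate is 1 animal, a pool or a repeat of 1 extract is not labelled, so every p-value is set against a spread that may be partly technical. Yy1 encodes Yin Yang 1, a DNA-binding regulator with zinc fingers, and Cre driven in this way acts in brown adipocytes, while the other cells of the tissue keep the gene.

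Mitochondrial DNA is a small circular genome that encodes a few subunits of the respiratory chain and the RNAs needed to translate them. Every protein that replicates or transcribes it is encoded in the nucleus and imported. TFAM coats and bends the DNA, TFB2M opens the promoter for the polymerase POLRMT, and the polymerase gamma complex copies strands that the single-stranded DNA-binding protein SSBP1 holds open. In brown fat, which is packed with mitochondria, the coactivator PGC-1alpha works through nuclear respiratory factors, NRF1 and the GABP complex, on genes of this kind, and YY1 has been described as a partner of PGC-1alpha at mitochondrial genes in muscle.

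Yy1 itself was lower in YY1bKO tissue in its brightest probe set, with log2 intensities of 8.38 to 8.41 in YY1bKO, against 9.62 to 9.95 in control arrays, and without overlap (log2 difference -1.43 ± 0.10, SE, limma adjusted p = 0.000854). Its other probe sets gave -1.71, -0.81 and -0.06 (limma adjusted p = 0.000456, 0.0103 and 0.766 over all probe sets). The groups overlapped in the last of these. The defining brown adipocyte marker Ucp1 was bright in all arrays, at 13.78 ± 0.08 in YY1bKO and 13.92 ± 0.06 in control tissue (SD, n = 3). Of 8 measured brown adipocyte markers, Zic1 was called higher (log2 difference 0.90 ± 0.14, SE, limma adjusted p = 0.00847), and the other 7 had a lower mean in YY1bKO tissue without being called, down to -0.87 ± 0.38 for Dio2, named after its values were seen. Control replicate 2 stood apart: 11 of 12 skeletal muscle markers were highest in it, and their summed intensity was 57902 to 78234 in YY1bKO arrays, against 151819 in control replicate 2 and 26228 to 31975 in the other control arrays. Myh7, a slow muscle myosin, was the 1 muscle marker called higher (log2 difference 1.72, limma adjusted p = 0.00551). Endothelial markers moved with the groups: all 8 had a lower mean in YY1bKO tissue, Cdh5, Kdr and Tek were called lower, and their summed intensity was 2370 to 2699 in YY1bKO, against 3342 to 3942 in control arrays. Summed brown adipocyte markers were 59699 to 61651 in YY1bKO, against 61157 to 68678 in control arrays, a sum carried by the brightest of them. Summed macrophage markers were 3746 to 4106 in YY1bKO and 2992 to 4753 in control arrays, and 1 of 9, Cd163, was called lower without overlap (-0.79 ± 0.19, SE, adjusted p = 0.0330). A higher mean in YY1bKO tissue was seen in 5 of these 9, and the list median was 0.14. Of 7 white adipocyte markers 1, Lep, was called lower, 4.01-fold (adjusted p = 0.00881). Of the 7, 4 had a higher mean in YY1bKO tissue, with a list median of 0.24. The summed intensity of all 7 was 8687 to 11274 in YY1bKO, against 8952 to 11843 in control arrays. The 12 poly-A control probe sets, which read RNA added during preparation, averaged 6.75 to 6.93 in YY1bKO, against 6.96 to 7.23 in control arrays on the log2 scale, also without overlap. The part of these shifts in the results that follow was not tested, and in whole tissue fewer cells of a type and less RNA per cell cannot be told apart.

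Ssbp1 and Tfam rose in YY1bKO tissue, Tfb2m fell, and the other 7 genes were not called. Ssbp1 was higher by 0.59 and Tfam by 0.35 on the log2 scale, which is 1.28-fold for Tfam, and Tfb2m was 1.36-fold lower. A gene was called where limma's moderated test, fitted on the brightest probe set of each of the 12393 genes, gave a Benjamini-Hochberg adjusted p under 0.05. Of the 10 genes, 2 were called higher and 1 lower (30%), against 10.2% higher and 8.09% lower of all genes (18.3% together), and nothing particular to the 10 is read from so small a count. The median log2 difference over the 10 genes was 0.04, as over all genes. The groups did not overlap in 4 of the 10 genes, against 38.5% of all genes. Within groups the 10 genes had an SD between 0.04 and 0.14 on the log2 scale, pooled over the groups. Its median was 0.12 over the 10 genes, against 0.13 over all genes.

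**Figure D1:**
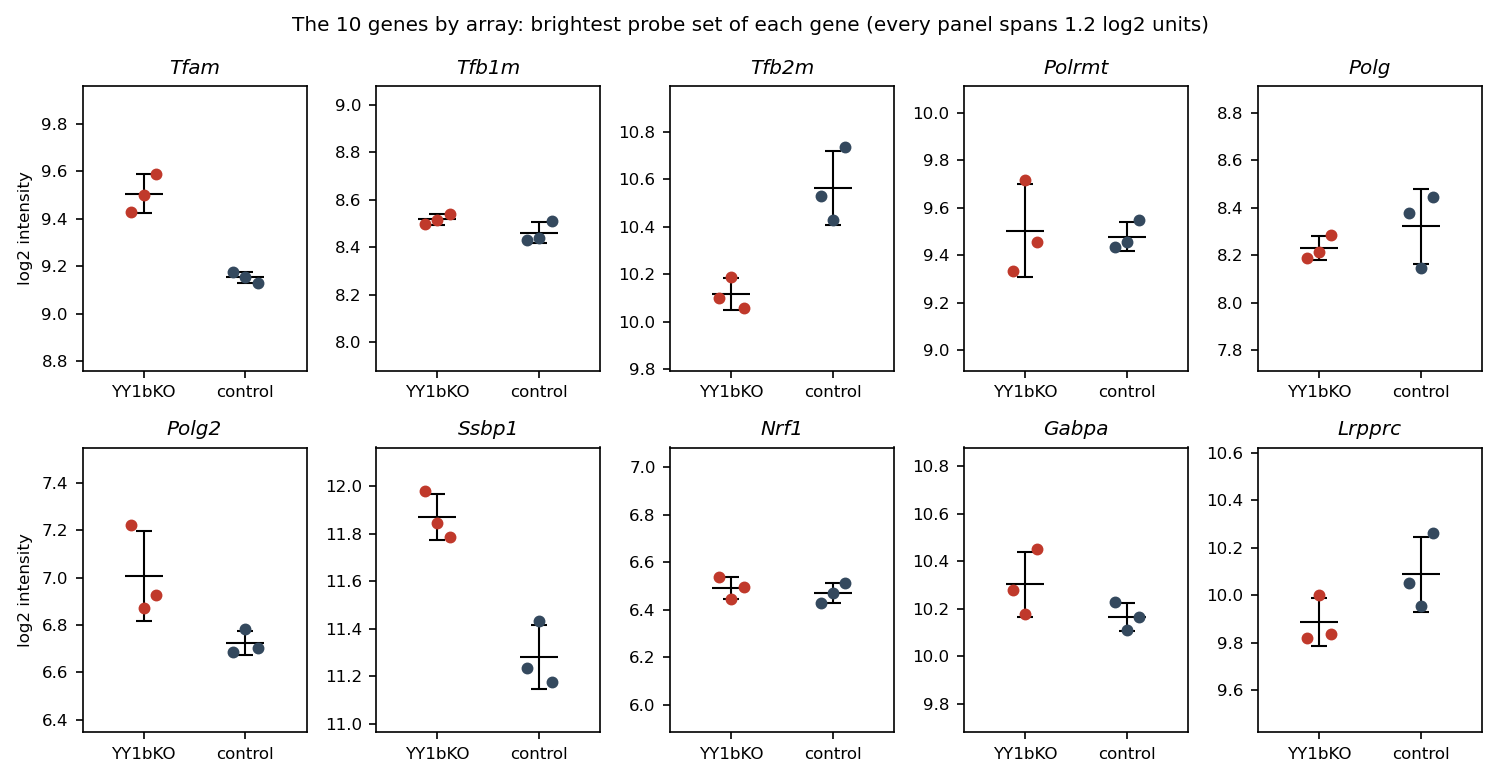
Log2 intensity (y axis) of the brightest probe set of each of the 10 genes in the 3 YY1bKO arrays (left, red) and the 3 control arrays (right, dark blue), with every panel spanning 1.2 log2 units. Points are arrays, and bars show the mean and SD. Ssbp1 at 11.79 to 11.98 and Tfam at 9.43 to 9.59 in YY1bKO tissue lie above all control arrays, and Tfb2m at 10.06 to 10.19 lies below all of them.

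The windows before the transcription starts of the 3 called genes are shown. That of Gabpa is added as the 1 gene of the 10 with a match to the YY1 motif searched. Each sequence is the 250 bases before the start, 5′ to 3′ on the strand of the gene, from RefSeq on GRCm38.p6, and capitals mark motif matches, of which the Tfb2m window has none.
Tfam (chr10:71238045-71238294, minus strand): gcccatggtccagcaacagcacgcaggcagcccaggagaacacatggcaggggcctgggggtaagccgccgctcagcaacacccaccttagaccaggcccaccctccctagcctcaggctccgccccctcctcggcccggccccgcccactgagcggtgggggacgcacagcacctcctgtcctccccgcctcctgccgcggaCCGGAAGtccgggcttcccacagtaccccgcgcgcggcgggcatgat
Ssbp1 (chr6:40471218-40471467, plus strand): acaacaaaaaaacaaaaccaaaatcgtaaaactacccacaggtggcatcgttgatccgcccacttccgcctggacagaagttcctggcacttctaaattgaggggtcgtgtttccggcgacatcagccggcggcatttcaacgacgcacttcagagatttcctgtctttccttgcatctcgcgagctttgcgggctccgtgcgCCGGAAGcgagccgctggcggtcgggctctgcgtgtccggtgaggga
Tfb2m (chr1:179546277-179546526, minus strand): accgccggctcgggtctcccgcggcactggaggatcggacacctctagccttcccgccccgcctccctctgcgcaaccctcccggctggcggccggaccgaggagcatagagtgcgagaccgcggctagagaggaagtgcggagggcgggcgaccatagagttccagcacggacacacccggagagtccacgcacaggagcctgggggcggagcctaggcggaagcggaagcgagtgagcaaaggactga
Gabpa (chr16:84834874-84835123, plus strand): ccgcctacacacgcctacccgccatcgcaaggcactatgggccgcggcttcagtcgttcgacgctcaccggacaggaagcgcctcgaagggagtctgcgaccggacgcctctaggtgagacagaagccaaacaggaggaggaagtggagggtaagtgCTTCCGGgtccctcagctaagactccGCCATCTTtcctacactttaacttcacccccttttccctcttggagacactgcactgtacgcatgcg

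Motifs were searched on both strands in windows of 250 bases before to 50 bases after each start, and all 10 genes had a window. A gene can have several windows, as Nrf1 does. Matches among the 10 are counted by gene, but the shares are over windows, which are not limited to the genes measured. The counts and shares below are therefore not like for like. CCGGAAG, a core bound by ETS family factors such as GABPA, was found in Tfam, Polrmt, Polg, Polg2, Ssbp1 and Gabpa, which is 6 of 10 genes, and in 8.86% of all 32851 windows. In Tfam and in Ssbp1 it lay at the same place, from -47 to -41 relative to the start. Polrmt, Polg, Polg2 and Gabpa hold a match too and were not called. GCCATNTT, a core of the YY1 motif, was found in Gabpa alone of the 10, from -67 to -60, and in 6.05% of all windows. The NRF1 core, GCGCA and GCGC with any base between them, was found in Polrmt alone, in 2 overlapping copies at the start, and in 4.60% of all windows. TCAAGGTCA, the motif of the estrogen-related receptor ESRRA, was found in 0 of the 10 and in 0.423% of all windows. No match says only that these letters are not in this window. Whether a match bears on the change of a gene was not tested.

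Of the genes that package and transcribe the mitochondrial genome, Tfam was higher, Tfb2m was lower, and Tfb1m and Polrmt were not called. Tfam, the packaging and transcription factor, had log2 intensities of 9.43, 9.50 and 9.59 in YY1bKO arrays, against 9.17, 9.16 and 9.13 in control arrays. The groups did not overlap, and the control arrays lay close together. The log2 difference was 0.35 ± 0.08 (SE, limma adjusted p = 0.0231), larger than that of 88.2% of all genes. It rested on a single probe set. Leaving out YY1bKO replicate 1, 2 or 3 ended its call (adjusted p = 0.0536, 0.0807 and 0.0885), as did leaving out control replicate 1 or 3 (0.0676 and 0.0609), while the difference stayed between 0.31 and 0.39. Without control replicate 2, the array rich in muscle transcripts, it was 0.35 (adjusted p = 0.0267).

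Tfb2m, the factor that melts the promoter with POLRMT, had log2 intensities of 10.10, 10.19 and 10.06 in YY1bKO arrays, against 10.53, 10.43 and 10.74 in control arrays. All YY1bKO arrays lay below all control arrays, and the control arrays were the more scattered. The log2 difference was -0.45 ± 0.10 (SE, limma adjusted p = 0.0262), and only 9.37% of genes had a more negative one. This too rested on 1 probe set. Leaving out YY1bKO replicate 1, 2 or 3 ended its call too (adjusted p = 0.0910, 0.0688 and 0.0975), as did leaving out control replicate 1 or 3 (0.0715 and 0.0527), with differences of -0.52 to -0.36. Without control replicate 2 it was -0.52 (adjusted p = 0.0111).

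Tfb1m is a relative of Tfb2m whose product methylates the RNA of the small mitochondrial ribosome subunit. It had log2 intensities of 8.50, 8.52 and 8.54 in YY1bKO arrays, against 8.43, 8.44 and 8.51 in control arrays. The groups overlapped, and the difference of 0.06 had a 95% confidence interval of -0.11 to 0.22 (limma adjusted p = 0.636). The other Tfb1m probe set gave 0.16 ± 0.09 (SE, adjusted p = 0.309), without overlap. The ratio of Tfb2m to Tfb1m within each array, relative to its mean in control arrays, was -0.50, -0.43 and -0.59 in YY1bKO arrays, against -0.01, -0.11 and 0.12 in control arrays on the log2 scale. The ratio was lower in every YY1bKO array, by 0.50 on average (two-sided exact permutation p = 0.1, and no smaller value can come from 3 arrays a group). With this p the ratio is a description, and it says nothing of either level against the other.

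Polrmt, the mitochondrial RNA polymerase, had log2 intensities of 9.33, 9.72 and 9.46 in YY1bKO arrays, against 9.43, 9.45 and 9.55 in control arrays. The YY1bKO arrays spanned the whole range of the control arrays. The difference was 0.02, with a 95% confidence interval of -0.24 to 0.29 (limma adjusted p = 0.908), and it was -0.08 without YY1bKO replicate 2. A dimmer Polrmt probe set gave 0.20 ± 0.10 (SE, adjusted p = 0.257).

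Of the genes of the replication machinery, Ssbp1 was higher, and the polymerase subunits Polg and Polg2 were not called. Ssbp1 had log2 intensities of 11.98, 11.85 and 11.79 in YY1bKO arrays, against 11.23, 11.43 and 11.18 in control arrays. The groups did not overlap, and control replicate 2 was the highest of the control arrays. The log2 difference was 0.59 ± 0.10 (SE, limma adjusted p = 0.0105), larger than that of 95.8% of all genes. It was called in each of the 6 fits that left out an array, with differences of 0.54 to 0.67 and adjusted p of 0.00403 to 0.0461, and without control replicate 2 it was 0.67.

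Ssbp1 has 2 further probe sets. The second had log2 intensities of 10.54, 10.47 and 10.48 in YY1bKO arrays, against 9.63, 9.87 and 9.63 in control arrays. Its difference was 0.79 ± 0.09 (SE, limma adjusted p = 0.00368 over all probe sets), and it was called in every fit that left out an array. The dimmest, at a mean of 4.96 in YY1bKO and 4.75 in control arrays, gave 0.21 ± 0.21 (SE, adjusted p = 0.558), and its groups overlapped. It lies far below 6.48, the median log2 intensity over all probe sets.

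Polg encodes the catalytic subunit of the mitochondrial DNA polymerase. It had log2 intensities of 8.19, 8.21 and 8.29 in YY1bKO arrays, against 8.38, 8.15 and 8.45 in control arrays. The groups overlapped through control replicate 2, the lowest of all arrays for this gene. The difference was -0.09, with a 95% confidence interval of -0.33 to 0.14 (limma adjusted p = 0.571). The dimmer probe sets gave -0.20 ± 0.10 and 0.04 ± 0.17 (SE, adjusted p = 0.219 and 0.906).

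Polg2, the accessory subunit that keeps the polymerase on its template, had log2 intensities of 7.22, 6.87 and 6.93 in YY1bKO arrays, against 6.69, 6.78 and 6.70 in control arrays. The groups did not overlap, with YY1bKO replicate 1 well above the other 5 arrays. The difference of 0.28 ± 0.11 (SE) did not pass the test (limma adjusted p = 0.132), and its 95% confidence interval was 0.02 to 0.54. The ratio of Polg to Polg2 within each array, relative to its mean in control arrays, was -0.63, -0.26 and -0.24 in YY1bKO arrays, against 0.09, -0.24 and 0.14 in control arrays. YY1bKO arrays were lower by 0.38 on average, and the highest of them lay only just below control replicate 2 (two-sided exact permutation p = 0.1). That difference was -0.25 without YY1bKO replicate 1, and p was 0.3 after quantile normalization.

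Neither nuclear respiratory factor gene was called in its brightest probe set. Nrf1 encodes the DNA-binding regulator of many respiratory chain genes. It had log2 intensities of 6.54, 6.45 and 6.49 in YY1bKO arrays, against 6.43, 6.47 and 6.51 in control arrays. The groups overlapped throughout, and the difference of 0.02 had a 95% confidence interval of -0.15 to 0.20 (limma adjusted p = 0.858). All 3 Nrf1 probe sets lay no higher than that median. A dimmer one had 5.74, 5.72 and 5.82 in YY1bKO arrays, against 5.43, 5.44 and 5.54 in control arrays, and was called in the fit of all probe sets with 0.29 ± 0.08 (SE, adjusted p = 0.0486). That call was lost when any of the 6 arrays was left out (differences of 0.26 to 0.33, adjusted p of 0.0612 to 0.157). It was also lost after quantile normalization (0.0698) or median centring (0.0569), with eBayes trend and robust options (0.0758) and with the replicate number as a block (0.103). The remaining Nrf1 probe set gave 0.23 ± 0.14 (SE, adjusted p = 0.323).

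Gabpa encodes the DNA-binding subunit of the GABP complex, also called nuclear respiratory factor NRF-2. It had log2 intensities of 10.28, 10.18 and 10.45 in YY1bKO arrays, against 10.23, 10.11 and 10.17 in control arrays. YY1bKO replicate 2 lay below control replicate 1. The difference was 0.14, with a 95% confidence interval of -0.09 to 0.36 (limma adjusted p = 0.374). The dimmer probe set gave 0.35 ± 0.17 (SE, adjusted p = 0.226), without overlap. Control replicate 2 was at 7.64 and the other control arrays at 8.22, and without control replicate 2 the difference was 0.16. The within-array ratio of Nrf1 to Gabpa was lower in YY1bKO arrays by 0.11 on average, with overlap (two-sided exact permutation p = 0.3). That difference was -0.04 without YY1bKO replicate 3 and -0.06 in the mean over probe sets.

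Lrpprc, whose product binds mitochondrial messenger RNAs together with SLIRP and keeps them stable, had linear intensities of 903, 1026 and 915 in YY1bKO arrays, against 1061, 992 and 1227 in control arrays. The groups overlapped, since YY1bKO replicate 2 lay above control replicate 2. The log2 difference of -0.20 had a 95% confidence interval of -0.46 to 0.05 (limma adjusted p = 0.245). Its partner Slirp gave 0.08 ± 0.09 (SE, adjusted p = 0.621). The within-array ratio of Lrpprc to Slirp was lower in YY1bKO arrays by 0.28 on average, with overlap through control replicate 2 (two-sided exact permutation p = 0.3). That difference ranged from -0.40 to -0.15 over the fits that left out an array, and was -0.15 without control replicate 3.

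Of the 19 probe sets, 4 were called higher and 1 lower in the fit of all 22626 probe sets, where 16.0% were called, 8.83% higher and 7.16% lower. The groups did not overlap in 8 of the 19, against 36.2% of all probe sets. Probe sets of 1 gene share their RNA and are not replicates.

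**Figure D2:**
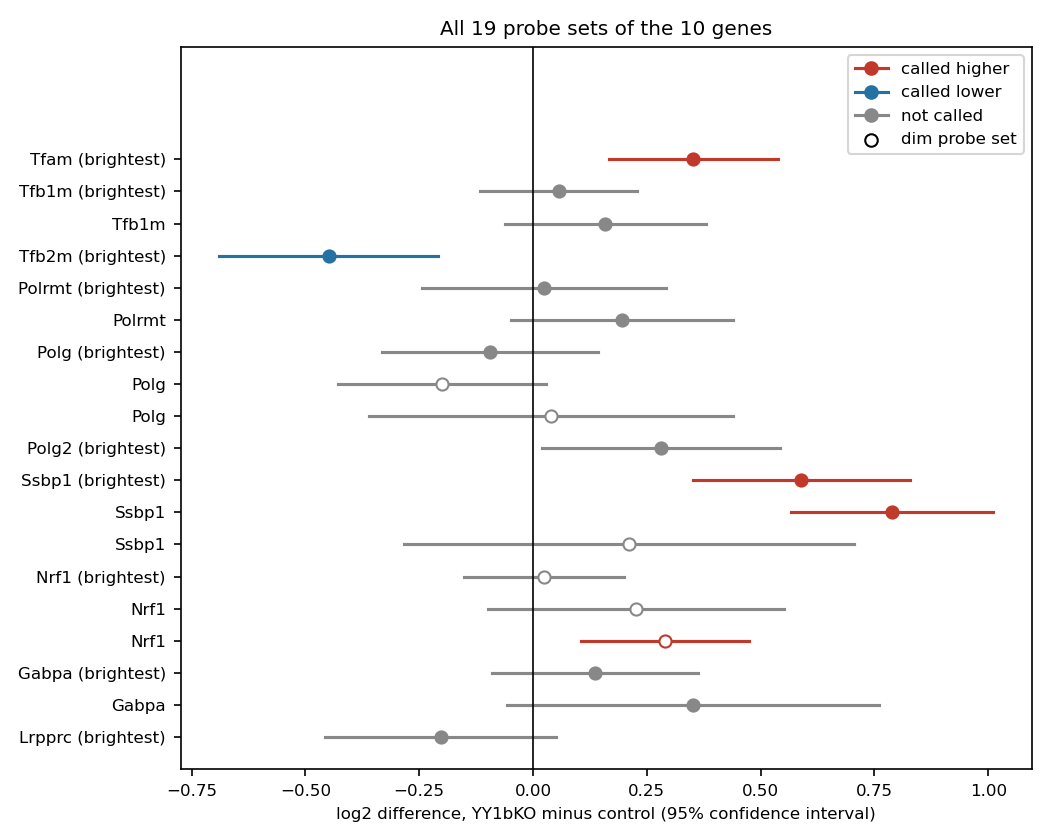
Log2 difference between YY1bKO and control tissue (x axis) of the 19 probe sets, with 95% confidence intervals from limma's fit of all probe sets. Red marks probe sets called higher, blue lower and grey not called, and open circles are dim probe sets. The brighter Ssbp1 probe sets at 0.59 and 0.79 and the Tfam probe set at 0.35 lie above 0, Tfb2m at -0.45 lies below it, and the called Nrf1 probe set at 0.29 is a dim one.

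The other genes of this pathway were taken from 5 lists, and 12 of the 58 measured were higher and 6 lower (31.0%, against 18.3% of all genes), with a median log2 difference of 0.05. Of the 18 called genes, 8 were called in all 6 fits that left out an array. Lower among these were Mgme1, Hsd17b10, Fastkd1, Nsun4 and Pnpt1, and higher were Fastkd2, Lonp1 and Ppargc1a. Fastkd1, a relative of Fastkd2, is named after its values were seen (log2 difference -0.68 ± 0.12, SE, limma adjusted p = 0.0123). Leaving out YY1bKO replicate 1, 2 or 3 gave 6, 3 and 4 higher genes, and leaving out control replicate 1, 2 or 3 gave 5, 12 and 7. Without control replicate 2 there were 10 lower genes, and 5 in each of the other 5 fits.

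In the list of replication and repair of mitochondrial DNA, 3 of 13 measured genes were higher and 1 lower, with a list median of 0.16 (30.8% called, against 18.3% of all genes). Mgme1, a nuclease that trims the ends of replicating mitochondrial DNA, had log2 intensities of 6.26, 6.44 and 6.56 in YY1bKO arrays, against 8.12, 7.92 and 8.31 in control arrays. The groups lay far apart, and Mgme1 was 3.23-fold lower (log2 difference -1.69 ± 0.13, SE, limma adjusted p = 0.00102). Its dimmer probe set gave -0.79 ± 0.15 (SE, adjusted p = 0.0151). The higher genes were Fen1, a flap nuclease (0.45, adjusted p = 0.0247), Ogg1, which removes oxidised guanine (0.39, adjusted p = 0.0286), and Rnaseh1, which degrades RNA primers (0.39, adjusted p = 0.0443). Those 3 calls were lost without YY1bKO replicate 2, YY1bKO replicate 3 or control replicate 1, those of Fen1 and Rnaseh1 also without YY1bKO replicate 1. The calls of Ogg1 and Rnaseh1 also needed control replicate 3. Both Ogg1 probe sets were dim, with the brighter at 5.74 in each control array, and Ogg1 was not tested once dim probe sets were left out. Fen1 and Ogg1 also work in the nucleus. Twnk, which encodes the replicative helicase, was not analysed here.

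Of 11 measured genes for the supply of nucleotides 2 were higher (18.2%, against 18.3% of all genes), and the list median was 0.18. Slc25a36, a carrier of pyrimidine nucleotides in the inner mitochondrial membrane, gave 0.39 ± 0.08 (SE, limma adjusted p = 0.0198). Rrm2b, a ribonucleotide reductase subunit of resting cells, gave 0.42 ± 0.09 (SE, adjusted p = 0.0245). Both calls were lost without any of the YY1bKO arrays, that of Rrm2b also without control replicate 1 or 3.

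In the list of transcription and termination, 3 of 6 measured genes were higher (50% called, against 18.3% of all genes), and the list median was 0.21. None was lower by limma, at an adjusted or an unadjusted p under 0.05. Lonp1, the matrix protease that degrades TFAM, had log2 intensities of 10.70, 10.72 and 10.62 in YY1bKO arrays, against 10.07, 9.80 and 10.15 in control arrays. It was higher without overlap, by 0.68 ± 0.11 (SE, limma adjusted p = 0.00880). Tefm, the elongation factor of POLRMT, gave 0.37 ± 0.10 (SE, adjusted p = 0.0463), and Mterf3, a regulator of mitochondrial transcription, 0.35 ± 0.08 (SE, adjusted p = 0.0249). The Tefm and Mterf3 calls held without control replicate 2 and in no other fit that left out an array.

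Genes for processing and stability of mitochondrial RNA moved both ways, 3 higher and 4 lower of 17 measured, with a list median of -0.10 (41.2% called, against 18.3% of all genes). Hsd17b10, a subunit of the RNase P of mitochondria and a dehydrogenase of branched-chain metabolism, had log2 intensities of 9.31, 9.46 and 9.36 in YY1bKO arrays, against 10.55, 10.32 and 10.57 in control arrays. It was 2.15-fold lower (limma adjusted p = 0.00132), and its other probe set gave -1.31. Fastkd2, which binds mitochondrial ribosomal RNA, had 10.16, 10.19 and 9.97 in YY1bKO arrays, against 9.14, 9.31 and 9.06 in control arrays. It was 1.91-fold higher (adjusted p = 0.00303), and its other probe sets gave 0.77 and 0.94. Nsun4, a methyltransferase of ribosomal RNA, fell by 0.61 (adjusted p = 0.00518). Pnpt1, a nuclease of the degradosome, fell by 0.49 (adjusted p = 0.00872) in its brightest probe set, and its dim probe set gave 0.81 ± 0.84 (SE, adjusted p = 0.574). The other genes called higher were Trmt10c (0.45, adjusted p = 0.0152) and Elac2 (0.40, adjusted p = 0.0196), named after their values were seen. Both calls were lost without YY1bKO replicate 2 and in other such fits. Further Elac2 probe sets gave 0.32 and -0.27 and were not called.

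Among 11 measured nuclear regulators 1 was higher and 1 lower (18.2%, against 18.3% of all genes), with a list median of -0.07. Ppargc1a, which encodes PGC-1alpha, was 2.12-fold higher in its brightest probe set (log2 difference 1.09, limma adjusted p = 0.00356). Of its 5 probe sets, 3 were called higher at 0.87, 0.99 and 1.09, while the others gave 0.04 ± 0.18 and 0.08 ± 0.19 (SE). Over the fits that left out an array these others ranged from -0.09 to 0.25 and from -0.04 to 0.32. Both were highest without control replicate 2, where the latter was called (limma adjusted p = 0.0313) and the former was not (0.0883). Ppargc1b, its relative PGC-1beta, gave -0.43 ± 0.12 (SE, adjusted p = 0.0461), a call that held without control replicate 2 and in no other such fit. Pprc1, the third member of that family, gave -0.04 ± 0.08, and Gabpb1, the partner subunit of Gabpa, gave -0.07 ± 0.17 (SE, adjusted p = 0.771 and 0.828).

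**Figure D3:**
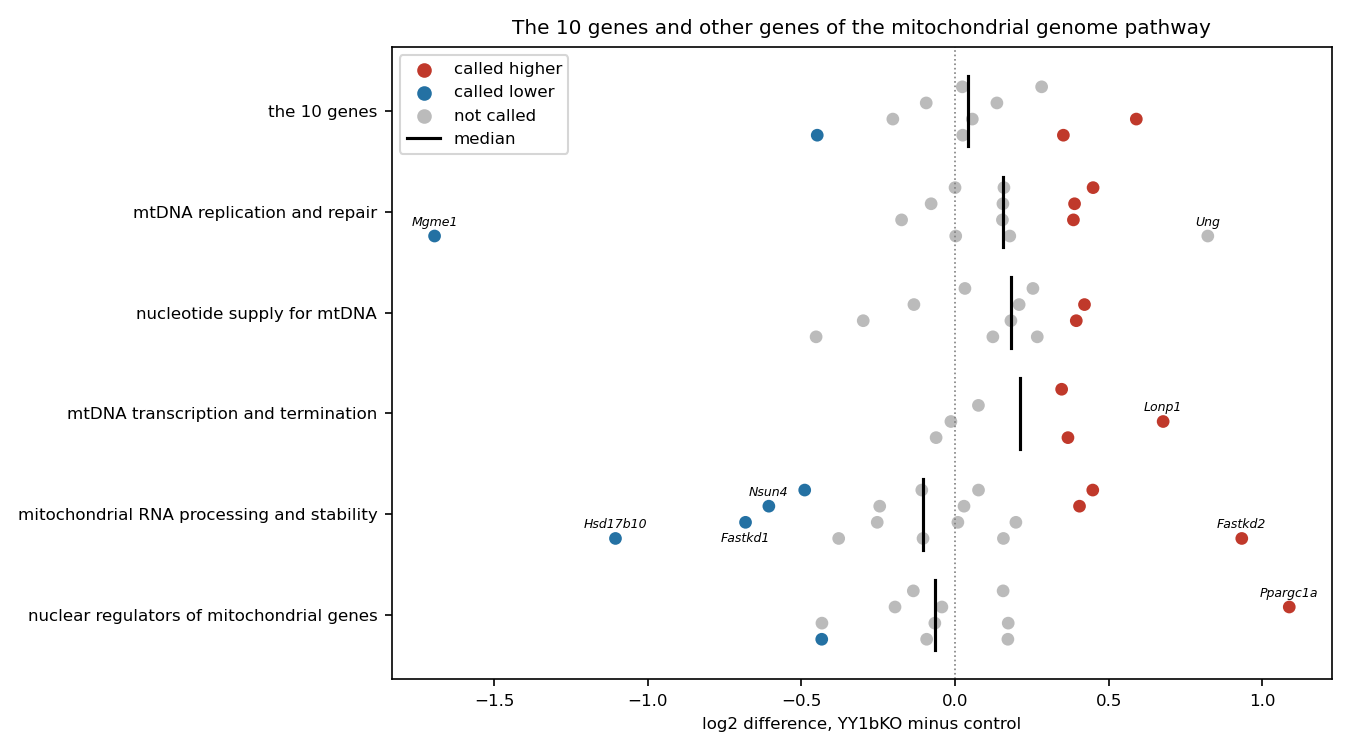
Log2 difference between YY1bKO and control tissue (x axis) of the 10 genes (top row) and of the measured genes of the 5 pathway lists (rows below), 1 point a gene. Red marks genes called higher, blue lower and grey not called, and black bars are medians. Called genes of the 10 lie between -0.45 and 0.59, while Mgme1 at -1.69, Hsd17b10 at -1.10, Fastkd2 at 0.93 and Ppargc1a at 1.09 lie farther out.

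Of the transcripts made from mitochondrial DNA itself, 1 had a named probe set, that of ND5, a subunit of respiratory complex I. ND5 had log2 intensities of 14.22, 14.21 and 14.16 in YY1bKO arrays, against 14.14, 14.11 and 14.13 in control arrays. The YY1bKO arrays all lay above the control arrays, but the difference of 0.07 ± 0.07 (SE) did not pass the test (limma adjusted p = 0.546). These values lie near the top of the range of the arrays, whose highest intensity was 14.37 on the log2 scale.

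Genes whose values over the 6 arrays were most like those of Tfam and Ssbp1 were found by the root mean square distance between log2 values, each centred on its mean. For Tfam the nearest were Mau2 (0.024), Mterf3 (0.027), Mib1 (0.028) and Zmynd19 (0.033), and 677 genes lay within 0.1. For Ssbp1 they were Selenoh (0.023), Eif2ak2 (0.034), Dnajc10 (0.037) and Rpl27 (0.042), and 142 genes lay within 0.1.

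**Figure D4:**
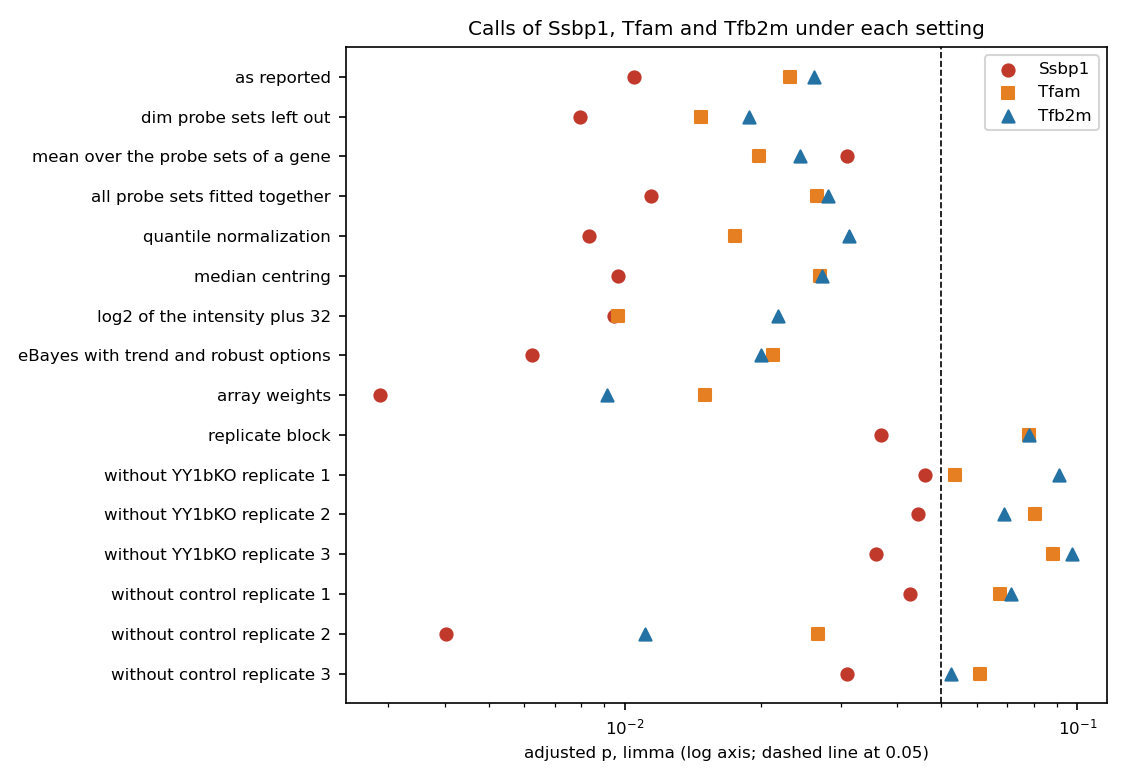
Adjusted p from limma (x axis, log scale, dashed line at 0.05) of Ssbp1 (circles), Tfam (squares) and Tfb2m (triangles) as reported and under each alternative setting (rows). Ssbp1 stays left of the line in every row, up to 0.0461, while Tfam and Tfb2m cross it with the replicate number as a block and in each row without an array other than control replicate 2.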

How the data were processed

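The authors deposited 1 intensity per probe set and array on a linear scale, made with RMA per the submitters' processing notes; software, version and genome build are not given in the sources. Labelled RNA came from 6 ug of total RNA, per the labels' protocols. RMA equalises array distributions, which hides a shift of most transcripts, and pulls in fold changes of dim probe sets. The table holds no detection calls.

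The deposited intensities were turned to log2 without an offset. Of 22626 probe sets without the 64 Affymetrix controls, 20380 had 1 symbol, 691 several and 1555 none in the platform annotation, and 20351 matched RefSeq by Entrez identifier. Each of 12393 genes was represented by its brightest named probe set. The test was limma 3.58.1 in R 4.3.3 (lmFit, eBayes), group as sole term, all 6 arrays, two-sided, with Benjamini-Hochberg adjustment over all genes, and a second fit covered all probe sets. The number of arrays limits the precision. Dim means a mean at or below 6.48 on the log2 scale, the median of all probe sets.

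The genes, the lists and the rule for names were chosen with earlier results of these data known. Named were all 10 genes, up to 4 called genes of each list by smallest p, Slirp, Tefm, Ppargc1a, Pprc1, Gabpb1, ND5, Yy1, up to 3 called markers of a list, and the nearest genes. The fit was tested on simulated data, drawn independently for each gene and array. Such data hold no shift shared by the genes of an array, so this test does not bear on single calls. Alternatives were a filter on dim probe sets, the mean over probe sets, quantile normalization, median centring, an offset of 32, eBayes options, array weights, a replicate block and leaving out each array. Of 6 measured markers of T and B cells limma called 0, with 1 at an unadjusted p under 0.05. All 6 were dim, and 5 had a higher mean in YY1bKO tissue. Their summed intensity was 265 to 309 in YY1bKO, against 244 to 260 in control arrays, without overlap. The part of this shift in the results was not tested.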

Additional observations from a re-analysis of the deposited data

How the results depend on the processing

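The calls of Ssbp1, Tfam and Tfb2m held without dim probe sets, in the mean over probe sets, with all probe sets fitted together, after quantile normalization or median centring, with the offset, with eBayes options and with array weights. The labels do not say whether replicate numbers pair the samples. Deviations of same-numbered arrays from their group means correlated at -0.25, 0.11 and 0.26 across genes. With means of 3 arrays, these values cannot decide it. With the replicate number as a block, the 10 genes held 1 higher and 0 lower (Tfam and Tfb2m at adjusted p = 0.0782, Ssbp1 at 0.0368), their probe sets 2 and 0, the pathway lists 3 and 5, and all genes 671 and 639. Leaving out single arrays gave 1 to 2 higher and 0 to 1 lower of the 10, 1 to 3 and 0 to 1 of their probe sets, 3 to 12 and 5 to 10 pathway genes, and 547 to 1661 and 466 to 1439 of all genes, and the median of the 10 was 0.0222 to 0.0878. These fits hold fewer samples. With array weights 2 probe sets of the 10 were lower, a dim one of Polg (-0.27, adjusted p = 0.0476) being added. In the mean over probe sets the median of the 10 was 0.14, and Pnpt1 changed sign to 0.16 (adjusted p = 0.834), its dim probe set going the other way. The cause of the other changes was not tested. The alternatives that refit variances were not run for within-array ratios, which come from an exact test. The labels and the table name no batch. With 3 arrays a group, the intervals above bound what could be seen, and dim probe sets and those near the top of the range may understate changes.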
